A study of Mus musculus with 24 samples.

Results

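The genes described here encode Polycomb proteins, histone deacetylases (HDACs) and the scaffolds of corepressor complexes. A fixed list of 42 symbols was used, and each was found both in the Zbtb16 set (23177 genes listed) and in the Sox3 set (21688 genes listed). RNA was sequenced from spermatogonia of mouse testes at postnatal day 7, sorted with magnetic beads into a THY1+ fraction, called uSPG for undifferentiated spermatogonia, and a KIT+ fraction, called dSPG for differentiating ones. The Zbtb16 set compared Zbtb16 null mice (homozygous for luxoid, a germline mutation carried by every cell) with WT littermates, and the Sox3 set compared Sox3 cKO mice (floxed Sox3 with Ddx4-Cre, which acts in germ cells) with WT littermates. All mice were on a C57BL/6J (B6) background and received no treatment. Each of the 8 groups had 3 libraries, each from 1 cell isolation that pooled the testes of 3 mice, so a value describes a pool and not a single mouse.

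Polycomb repressive complex 2 (PRC2) methylates lysine 27 of histone H3 through EZH1 or EZH2, which need EED and SUZ12. Polycomb repressive complex 1 (PRC1) ubiquitylates histone H2A through RING1 or RNF2, and is sorted into subtypes by which PCGF protein it holds. Canonical PRC1 contains PCGF2 or PCGF4 (BMI1), a CBX protein that reads the PRC2 mark and a PHC protein, whereas PCGF6 defines a variant complex known for silencing germline genes in other cell types. HDACs remove acetyl groups from histones within complexes built on SIN3A, SIN3B or NCOR1. ZBTB16 is a zinc-finger transcription factor that is known both to activate and to repress genes and to bind NCOR1, SIN3A, HDAC1 and BMI1, and SOX3 is a transcription factor of uSPG.

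Sequences are shown for the promoters of 3 genes that the results turn on: Pcgf6, which was higher in null THY1+ uSPG, Pcgf2, which was lower there, and Cbx7, which was lower in KIT+ than in THY1+ cells, as Pcgf6 was. Each window runs from 250 bases before to 50 bases after the RefSeq start on the GRCm38.p6 build, and is given in the direction of transcription. Pcgf6 lies at chr19:47050857-47051156 on the minus strand, Pcgf2 at chr11:97699599-97699898 on the minus strand, and Cbx7 at chr15:79932597-79932896 on the minus strand. Capitals mark matches on either strand to CACGTG (the E-box), GGGCGG (the GC box), TGCGCA (the repeated unit of the NRF1 motif) and CCAAT (the NF-Y motif), which do not overlap in these windows.
Pcgf6: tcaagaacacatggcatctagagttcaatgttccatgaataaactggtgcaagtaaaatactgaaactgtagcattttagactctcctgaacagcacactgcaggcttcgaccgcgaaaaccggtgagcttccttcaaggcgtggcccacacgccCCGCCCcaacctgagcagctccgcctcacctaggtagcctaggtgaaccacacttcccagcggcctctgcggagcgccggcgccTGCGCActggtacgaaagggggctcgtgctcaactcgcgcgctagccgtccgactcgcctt
Pcgf2: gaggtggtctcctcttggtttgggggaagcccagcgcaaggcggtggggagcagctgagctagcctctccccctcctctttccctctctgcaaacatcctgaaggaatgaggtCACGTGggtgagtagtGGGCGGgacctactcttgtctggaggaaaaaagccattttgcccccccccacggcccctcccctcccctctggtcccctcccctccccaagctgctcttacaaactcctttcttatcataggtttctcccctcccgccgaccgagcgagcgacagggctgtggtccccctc
Cbx7: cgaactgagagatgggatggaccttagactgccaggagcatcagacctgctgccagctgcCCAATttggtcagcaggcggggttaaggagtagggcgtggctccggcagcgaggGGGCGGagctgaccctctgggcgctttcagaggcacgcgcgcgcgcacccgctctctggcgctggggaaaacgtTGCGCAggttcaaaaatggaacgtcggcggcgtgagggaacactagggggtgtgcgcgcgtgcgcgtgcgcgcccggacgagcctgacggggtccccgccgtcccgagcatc

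The Pcgf6 window held 1 GC box, 1 TGCGCA match and 22 CpG dinucleotides, with a GC content of 57.7%. The Pcgf2 window held 1 E-box, 1 GC box and 10 CpG dinucleotides at 61.7% GC. The Cbx7 window held 1 GC box, 1 TGCGCA match and 1 CCAAT match, with 33 CpG dinucleotides at 67.3% GC. Windows were found for 37 of the 42 genes, which had 50 windows in all since some genes have several starts. The GC box occurred in 33 of these 50 windows (66.0%) and in 35.7% of all 32851 windows of the same length. The E-box occurred in 9 (18%, against 7.15% of all windows), TGCGCA in 10 (20%, against 7.76%) and CCAAT in 20 (40.0%, against 37.4%). A match is only a run of letters, and binding was not measured in the files used here.

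All 42 genes were expressed in every group. Their FPKM (fragments scaled to gene length and to the library's reads) ranged from 0.94 to 142.1 in the Zbtb16 set and from 0.817 to 130.3 in the Sox3 set, and 41 of the 42 reached 1 FPKM in every library of each set. Library depth, estimated from the smallest steps of FPKM, was 25.95 to 35.2 M reads in the Zbtb16 set, 28.3 to 31.9 M reads in replicate 1 of the Sox3 set and 11.02 to 14.9 M reads in its replicates 2 and 3. The lowest value of any of the 42 genes rested on an estimated 56.0 reads. Zbtb16 itself was lower in null than in WT, at 17.1 against 52.1 FPKM in THY1+ uSPG and 6.46 against 18.2 FPKM in KIT+ dSPG, and Sox3 was at most 0.082 FPKM in every cKO library against at least 6.28 FPKM in every WT library of its set. In the Sox3 set, Thy1 and Kit went against the labels of the WT fractions: Thy1 was at most 0.254 FPKM in the libraries labelled THY1+ against 3.59 FPKM or more in the WT libraries labelled KIT+, and Kit lay at 45.6 FPKM or more in the former and at 18.8 FPKM or less in the latter. These 6 libraries were not regrouped and are called WT labelled THY1+ and WT labelled KIT+.

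The order of levels in WT THY1+ uSPG of the Zbtb16 set showed which paralogs supplied most of the RNA (plot of levels by role). Scml2, an X-linked PRC1-associated gene known from germ cells, was highest at 104.3 ± 13.2 FPKM (SD, n = 3 here and below), and was not separated from Rbbp7, a histone chaperone subunit of PRC2 and HDAC complexes, at 99.1 ± 0.661 FPKM. Pcgf5 (68.8 ± 5.67 FPKM), Sin3a (63.3 ± 5.33 FPKM) and Mtf2 (61.7 ± 6.07 FPKM) followed with overlapping libraries. At the other end, Phf19 (2.25 ± 0.363 FPKM), Hdac8 (2.57 ± 0.0516 FPKM), Hdac7 (2.64 ± 0.553 FPKM) and Pcgf2 (3.05 ± 0.351 FPKM) were lowest.

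Within paralog pairs, 1 partner was usually dominant. Rnf2 made up 92.3% ± 1.29 of the summed FPKM of Rnf2 and Ring1 in WT THY1+ uSPG, and Bmi1 made up 88.9% ± 2.62 of that of Bmi1 and Pcgf2. Hdac1 was the minor member of its pair, with 12.7% ± 2.70 of the summed FPKM of Hdac1 and Hdac2. Hdac1 was at 6.92, 8.72 and 7.60 FPKM in WT THY1+ uSPG and at 7.58, 8.59 and 7.73 FPKM in WT KIT+ dSPG, so the fractions overlapped. Ezh1 exceeded Ezh2 in every THY1+ library of the Zbtb16 set, where Ezh2 was 39.7% ± 1.49 of their sum in WT, and the pair was nearly even in WT KIT+ dSPG, at 46.5% ± 3.95. These shares are descriptions. Reads that match several places were kept by the aligner's setting, so close paralogs and retrocopies can share reads.

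**Figure D1:**
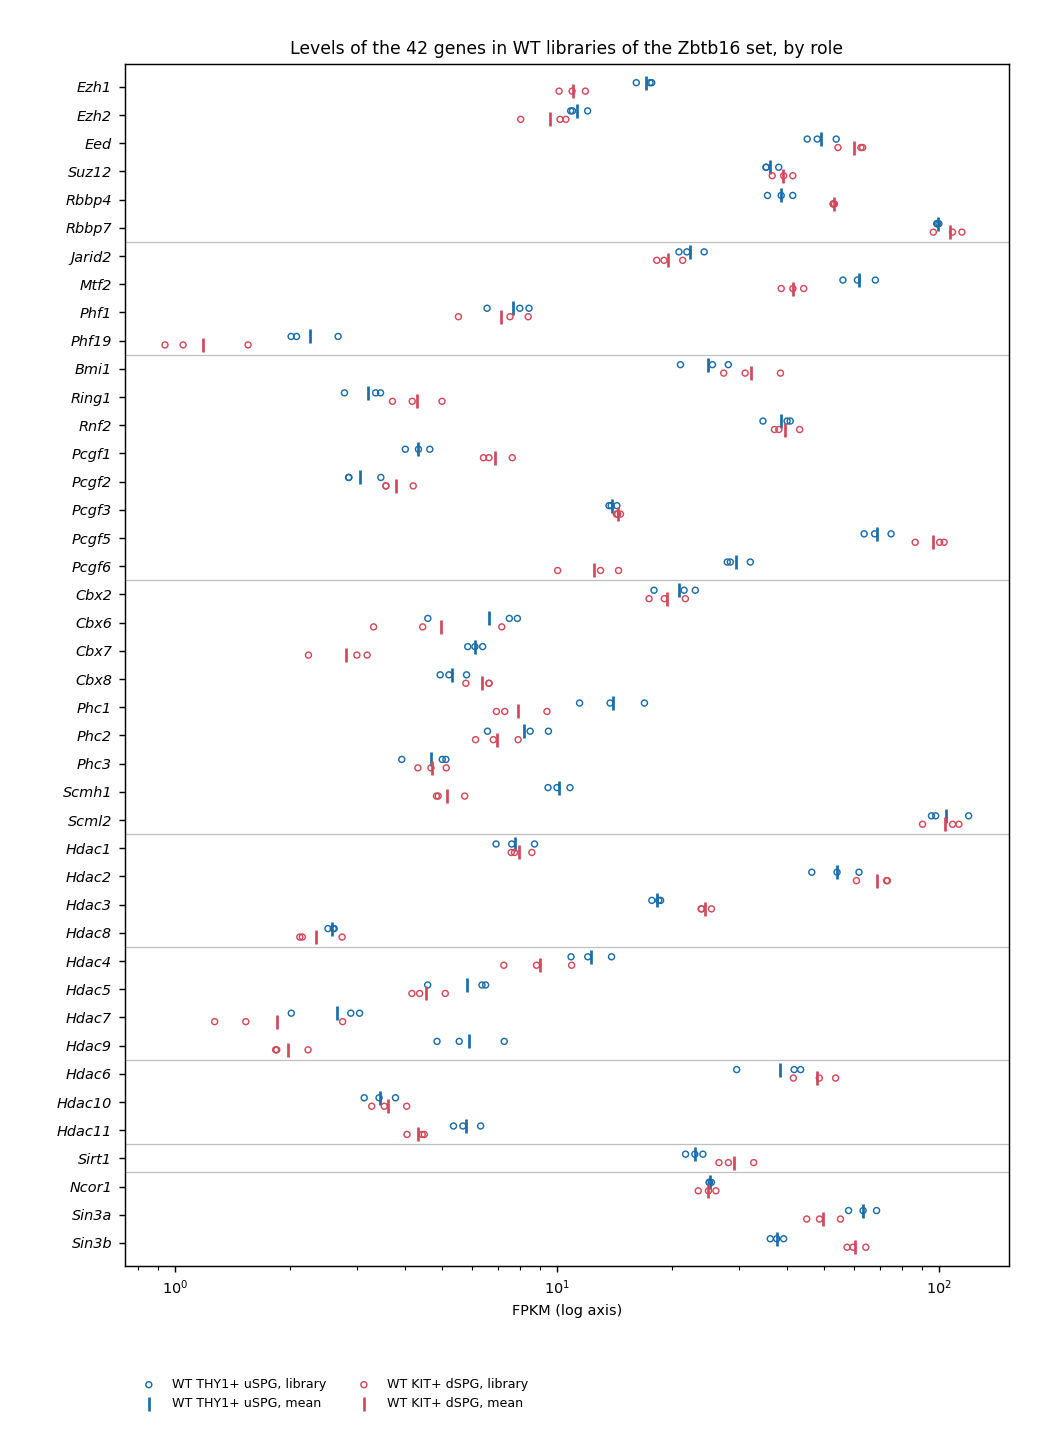
FPKM of the 42 genes in the WT libraries of the Zbtb16 set, on a log axis, with 1 circle per library and a bar at the mean of 3; blue marks THY1+ uSPG, red marks KIT+ dSPG, and grey lines separate roles. Scml2 and Rbbp7 lie near 100 FPKM, and Pcgf6, Cbx7, Scmh1 and Hdac9 show blue circles to the right of red ones.

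Between null and WT THY1+ uSPG, the share of these genes called was close to that of all genes. By the study's thresholds (an adjusted p of at most 0.05 in limma and a change of at least 1.5-fold), 2 of the 42 genes were called, or 4.76% of them beside 3.98% of all genes tested. Of these, 1 was higher and 1 lower in null, beside 2.71% of all genes called higher and 1.26% called lower. Pcgf6 rose and Pcgf2 fell, both of them PCGF proteins that define PRC1 subtypes. The median log2 change over the 42 genes was -0.04, beside -0.03 over all genes.

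Pcgf6 was at 28.4, 27.9 and 32.1 FPKM in WT THY1+ uSPG and at 49.3, 48.5 and 47.5 FPKM in null THY1+ uSPG. Every null library lay above every WT library. The log2 change was 0.72 ± 0.12 (SE), with an adjusted p of 0.00709. The call was kept in 14 of 14 alternative settings, with log2 changes from 0.68 to 0.78. In KIT+ dSPG the same gene was at 10.03, 14.5 and 12.99 FPKM in WT and at 16.2, 16.6 and 17.1 FPKM in null, again without overlap. There the log2 change of 0.43 ± 0.12 did not pass (adjusted p = 0.166), with a 95% interval of 0.17 to 0.69, and the difference between the fractions was not called (log2 -0.29 ± 0.17, adjusted p = 0.319).

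Pcgf2 was at 2.84, 3.45 and 2.85 FPKM in WT THY1+ uSPG and at 1.88, 2.22 and 1.69 FPKM in null THY1+ uSPG. The groups did not overlap, and the log2 change was -0.63 ± 0.15 (adjusted p = 0.0332). This call was less stable than that of Pcgf6 and was lost in 8 of 14 settings. The adjusted p was 0.0827, 0.128 and 0.0576 without WT THY1+ replicate 1, 2 or 3, and 0.121 and 0.13 without null THY1+ replicate 1 or 3. With a pseudocount of 1 in place of 0.1, which shrinks changes of genes at this level, the change was -0.47. In KIT+ dSPG, Pcgf2 went from 3.77 ± 0.368 FPKM in WT to 3.01 ± 0.291 FPKM in null (log2 -0.32 ± 0.15, adjusted p = 0.299).

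**Figure D2:**
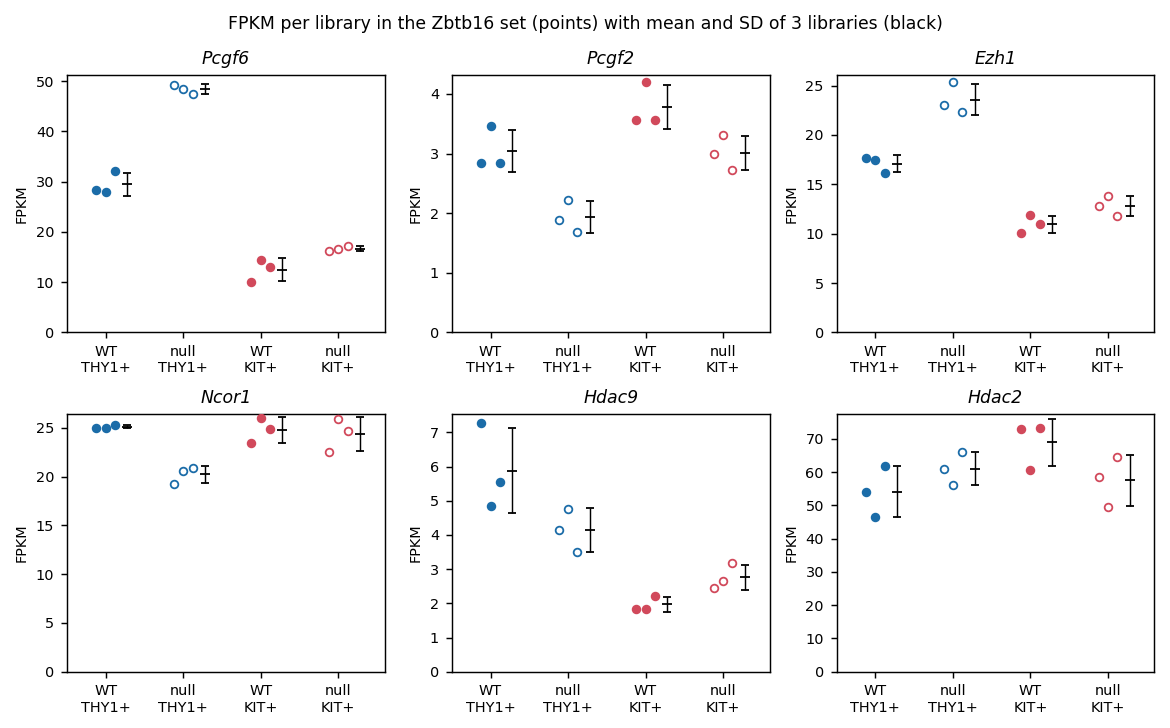
FPKM of 6 genes in each library of the Zbtb16 set, with filled points for WT, open points for null, blue for THY1+ uSPG and red for KIT+ dSPG; black bars give the mean and SD of 3 libraries, and axes start at 0. Pcgf6 in null THY1+ uSPG lies between 47.5 and 49.3 FPKM, above all WT libraries, and Pcgf2 in null THY1+ uSPG lies below every other library shown.

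By adjusted p alone, without the 1.5-fold limit, Ezh1 and Ncor1 joined the 2 called genes in THY1+ uSPG, which made 4 of 42 beside 5.3% of all genes. Ezh1, the H3K27 methyltransferase that prevails in non-dividing cells, was at 17.7, 17.5 and 16.1 FPKM in WT and at 23.1, 25.4 and 22.3 FPKM in null, a log2 change of 0.46 ± 0.09 (adjusted p = 0.020). Ncor1, the scaffold through which ZBTB16 is known to recruit HDAC3, was at 25.0, 25.0 and 25.3 FPKM in WT and at 19.2, 20.6 and 20.9 FPKM in null, a log2 change of -0.31 ± 0.08 (adjusted p = 0.0442). For both genes the groups stood apart, and both changes were under 1.5-fold. In all, 15 of the 42 genes had groups that did not overlap, beside 29.5% of all genes.

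Same-numbered libraries deviated together in this comparison, and a model with the replicate number as a block left the 2 calls in place, beside 8.85% of all genes called with the block. The block raised the number passing by adjusted p alone to 14 of 42 (8 higher and 6 lower), beside 20.3% of all genes. The added genes with higher values in null were Eed, Rbbp7, Mtf2, Bmi1, Scml2 and Hdac2, and those with lower values were Phc1, Phc3, Scmh1 and Hdac10. Bmi1, a stem cell PRC1 gene, was at 28.1, 21.0 and 25.5 FPKM in WT and at 37.7, 27.7 and 34.4 FPKM in null THY1+ uSPG, so each null library exceeded the WT library of its number although the groups overlapped. Its log2 change was 0.42 ± 0.17 (SE without the block), with an adjusted p of 0.173 without and 0.00152 with the replicate block.

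The remaining genes are given by role. Of the PRC2 core, Ezh2 was at 10.8, 12.01 and 10.97 FPKM in WT and at 12.1, 12.2 and 12.1 FPKM in null THY1+ uSPG, with a log2 change of 0.10 and a 95% interval of -0.15 to 0.36, and Suz12 was at 36.2 ± 1.61 and 37.2 ± 0.526 FPKM. The class I HDACs had log2 changes from -0.09 (Hdac3) to 0.27 (Hdac8). All of the class IIa HDACs but Hdac7 had negative estimates, the lowest that of Hdac9 at -0.49 ± 0.18 (adjusted p = 0.134). Sin3a (-0.17 ± 0.09) and Sin3b (0.02 ± 0.09), the alternative scaffolds of the SIN3-HDAC complex, were not called, nor was the ZBTB16 partner Hdac1, at 7.75 ± 0.91 and 7.57 ± 0.184 FPKM (95% interval of the log2 change -0.29 to 0.24).

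Markers of other cells had lower estimates in null THY1+ uSPG, and 1 of them, a macrophage marker, was called. In null THY1+ uSPG the summed FPKM of 12 macrophage markers was 485 to 912, against 1029 to 1187 in WT, and the median log2 change was -0.75 over them, -0.73 over 8 Leydig cell markers, -0.69 over 10 Sertoli cell markers, -0.60 over 10 peritubular and stromal markers, -0.50 over 8 endothelial markers and -0.40 over 9 T cell markers. For 8 germ cell markers, 1 of them called higher, it was 0.31, with summed FPKM of 1153 to 1474 in null and 990 to 1181 in WT, whereas 14 markers of undifferentiated spermatogonia had a median of -0.09 with 2 called lower, and 8 of differentiating spermatogonia one of -0.09. The part of these differences in the changes of Pcgf6, Pcgf2 and Ncor1 was not tested. In such bulk samples, fewer cells of a type and less RNA per cell cannot be told apart.

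In KIT+ dSPG none of the 42 genes was called between null and WT by limma, beside 0.259% of all genes, and 8 were below 0.05 before adjustment (19% of the 42, beside 17.3% of all genes). Same-numbered libraries deviated together here too, and with the replicate block 5 passed by adjusted p alone, beside 5.43% of all genes. These were Pcgf6 with a positive estimate and Eed (log2 -0.33 ± 0.10), Sin3a (-0.31 ± 0.09), Hdac2 (-0.27 ± 0.13) and Bmi1 (-0.21 ± 0.17) with negative ones, and none reached 1.5-fold. The SEs given are those of the fit without the block. The largest estimate in this fraction, that of Hdac7, was 0.67 ± 0.36 with an adjusted p of 0.348: its 3 null libraries ranged from 1.92 to 4.49 FPKM and its WT libraries from 1.27 to 2.74 FPKM. Of the markers of other cells, none was called in this fraction. The median log2 change in null was 0.53 over 8 Leydig cell markers, 0.72 over 10 peritubular and stromal markers and 0.58 over 8 endothelial markers. It was 0.21 over 10 Sertoli and 0.03 over 12 macrophage markers, and -0.14 over 9 T cell and -0.20 over 8 germ cell markers. The part of these differences in the changes of the 42 genes was not tested.

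Averaged over both fractions, none was called (2.3% of all genes were), and 8 had an unadjusted p under 0.05 (19%, beside 18.2% of all genes). By adjusted p alone 4 passed, beside 4.05% of all genes: Ezh1 (0.34), Rbbp7 (0.24) and Pcgf6 (0.57) were higher and Pcgf2 (-0.48) was lower in null. Rbbp7 was at 98.9, 99.9 and 98.6 FPKM in WT against 116.8, 116.6 and 119.9 FPKM in null THY1+ uSPG, which is a small and even shift. The test of whether the genotype effect differed between fractions called none of the 42, beside 0.0313% of all genes, with 10 under an unadjusted p of 0.05 (23.8%, beside 22.4% of all genes). Among these 10, Hdac9 had the largest estimate at 0.95 ± 0.25 (adjusted p = 0.0944): it was at 7.27, 4.85 and 5.54 FPKM in WT and 4.15, 4.77 and 3.51 FPKM in null THY1+ uSPG, but at 1.83, 1.84 and 2.23 FPKM in WT and 2.46, 2.65 and 3.18 FPKM in null KIT+ dSPG. Eed (-0.57), Bmi1 (-0.63) and Scml2 (-0.55) had estimates of the other sign, from higher values in null THY1+ uSPG and lower values in null KIT+ dSPG. A replicate block called Bmi1, Hdac9 and Hdac10 in this test, beside 12.3% of all genes. Not all same-numbered pairs deviated together here (16 of 18 did). No marker of other cells was called in this test without the block. Their median log2 estimates were 1.33 (Leydig cells), 1.35 (peritubular and stromal cells), 0.84 (Sertoli cells), 0.98 (endothelial cells), 0.79 (macrophages) and 0.12 (T cells). Over 8 germ cell markers the median was -0.56. The part of other cells in the estimates of Hdac9, Eed, Bmi1 and Scml2 was not tested.

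**Figure D3:**
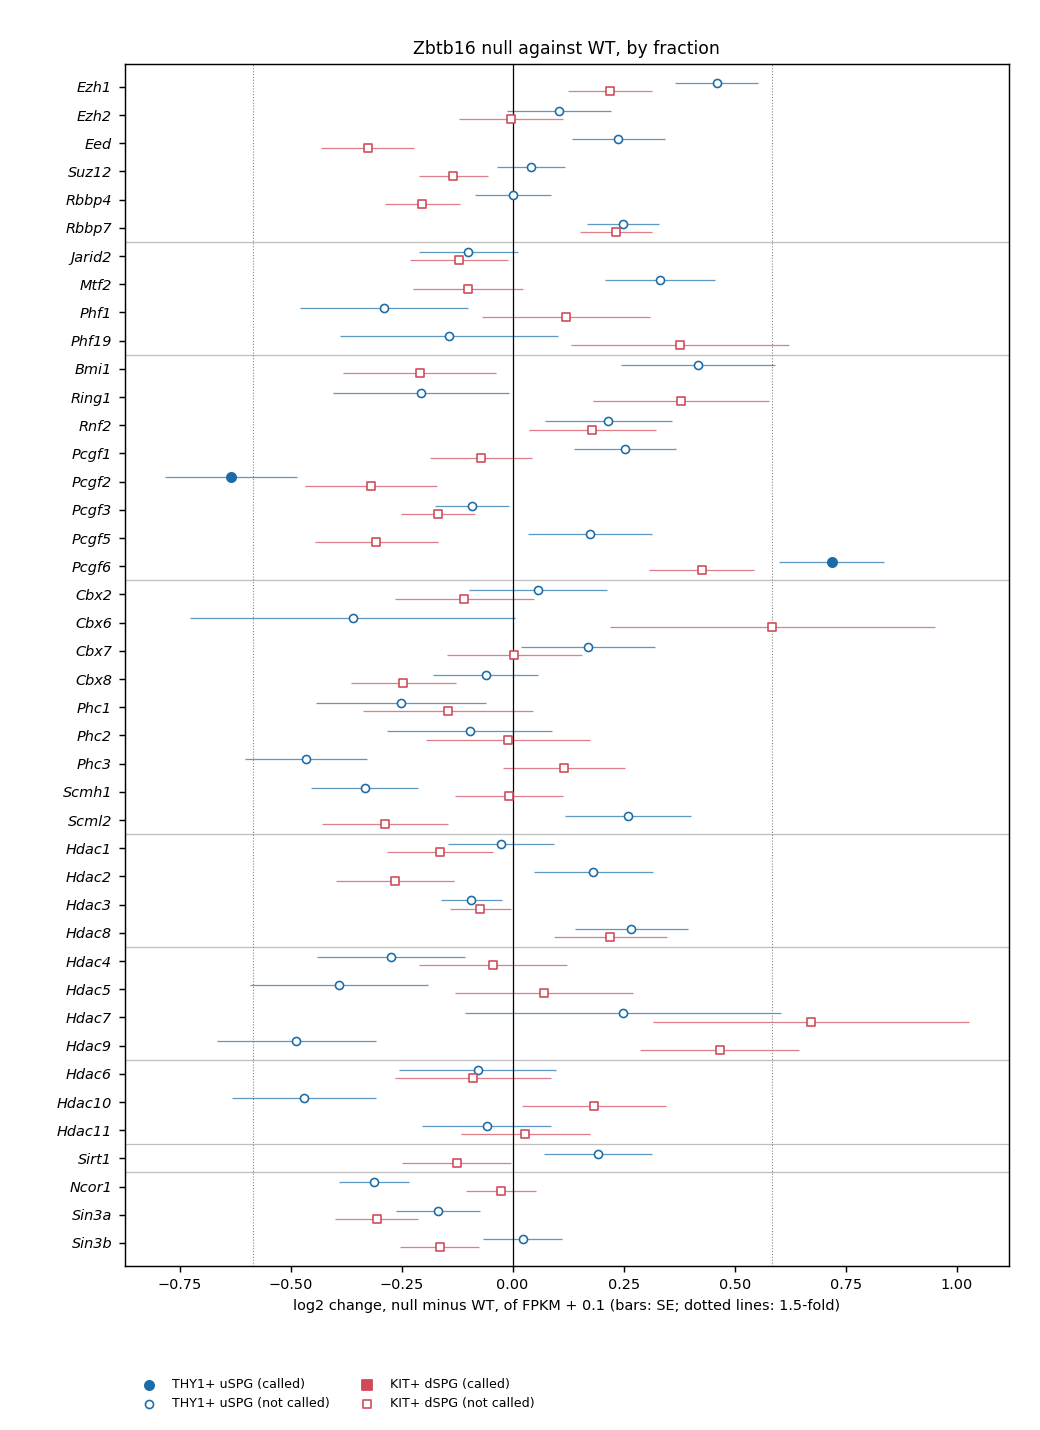
Log2 change of each of the 42 genes between Zbtb16 null and WT, with blue circles for THY1+ uSPG and red squares for KIT+ dSPG; bars give the SE, filled symbols are called, dotted lines mark 1.5-fold and grey lines separate roles. Pcgf6 (0.72) and Pcgf2 (-0.63) in THY1+ uSPG are the 2 filled symbols.

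Related genes of the same pathways were counted in the same way. Of 84 further subunits listed (PRC2 accessory proteins, variant PRC1, the deubiquitylase PR-DUB, NuRD, SIN3, CoREST, NCOR-SMRT, sirtuins and histone acetyltransferases), 82 were tested, and 1 was called in THY1+ uSPG (3.98% of all genes were) and none in KIT+ dSPG (0.259% of all genes). The call was Chd5, a NuRD helicase known for its role in spermiogenesis, which was higher in null (log2 0.88 ± 0.22, adjusted p = 0.0447). The median log2 change over the 82 genes was -0.00 in THY1+ uSPG and 0.02 in KIT+ dSPG.

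Larger changes separated the 2 fractions. KIT+ dSPG were compared with THY1+ uSPG in WT and in null of the Zbtb16 set and in cKO of the Sox3 set. These 3 comparisons share none of their 18 libraries. Those of WT and null are not independent, as they share an estimate of the spread and their same-numbered libraries deviated together. Among the 42 genes, 9 were called in WT (21.2% of all genes were), 10 in null (29.2% of all genes) and 7 in cKO (22.7% of all genes), so the share of these genes called, 16.7% to 23.8%, was near or below that of all genes. By adjusted p alone, 14, 19 and 15 passed, beside 28.9%, 39.5% and 29.3% of all genes. Same-numbered libraries deviated together between the fractions of null and of cKO. With the replicate block, 10 and 7 were still called there, beside 31.6% and 25.3% of all genes. By adjusted p alone, 25 and 18 passed with the block, beside 52.3% and 35.5% of all genes. In WT, 2 of 3 such pairs had a correlation over 0.1. With the block there, 9 were called, beside 24.1% of all genes, and 27 passed by adjusted p alone, beside 43.6%. Calls that were lower in KIT+ dSPG outnumbered the others, at 7 against 2 in WT, 6 against 4 in null and 6 against 1 in cKO. Over all genes, 14% were called lower and 7.21% higher in WT, 16% and 13.2% in null, and 12.2% and 10.5% in cKO. A correction for GC content and gene length was added after the data were seen. With it the split in WT was 6 against 4 (Rbbp4 and Pcgf5 were added and Ezh1 was lost), beside 22.7% of all genes called. By adjusted p alone the split went from 9 lower and 5 higher to 9 lower and 13 higher. Over all genes, the share passing in this way went from 28.9% to 37%, and the median log2 change from -0.03 to 0.10. The same 5 genes were called lower in all 3 comparisons: Ezh1, Pcgf6, Cbx7, Phc1 and Scmh1. A total of 14 genes were called at least once, none of them with opposite signs, and 29 of the 42 had estimates of 1 sign throughout, 16 lower and 13 higher in KIT+ dSPG. Of the 21037 genes tested in both tables, 7.47% were called lower in all 3 comparisons, 11.7% were called in all 3, 39.9% were called at least once and 63.9% had 1 sign throughout.

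Of these 5, Pcgf6 had the largest change in WT and in null, and Cbx7 in cKO. Pcgf6 fell by 1.24 ± 0.12 on the log2 scale in WT (adjusted p = 1.95e-05), by 1.54 ± 0.12 in null and by 1.11 ± 0.15 in cKO. In the Sox3 set it was at 31.9, 26.2 and 34.8 FPKM in cKO THY1+ and at 14.7, 11.96 and 16.3 FPKM in cKO KIT+ libraries. No fraction overlapped the other in any of these comparisons. Pcgf6 therefore moved in 2 ways at once in the Zbtb16 set, lower with the KIT+ fraction and higher with the null genotype.

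Cbx7, a chromobox reader of the H3K27 methyl mark known from self-renewing cells, was at 6.09, 6.38 and 5.83 FPKM in WT THY1+ uSPG and at 2.23, 3.18 and 2.99 FPKM in WT KIT+ dSPG (log2 -1.11 ± 0.15, adjusted p = 0.000271). In cKO it went from 5.97, 7.29 and 6.85 FPKM in THY1+ to 2.48, 2.76 and 3.52 FPKM in KIT+ libraries (-1.18 ± 0.15), and in null the change was -1.28 ± 0.15. The fractions stood apart each time. Cbx7 shares exon sequence with the protein-coding gene Apobec3 on the opposite strand. Whether counting used strand is not given, so reads of Apobec3 may be counted in these values. Cbx2, the chromobox gene best known from gonad development, was not called (19.4 ± 2.15 FPKM in WT KIT+ against 20.8 ± 2.60 FPKM in WT THY1+), and its share of the summed FPKM of Cbx2 and Cbx7, which was not tested, was 77.2% ± 1.54 in WT THY1+ and 87.4% ± 2.10 in WT KIT+ cells.

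Scmh1, a PRC1-associated protein with an MBT repeat, was at 9.47, 10.8 and 9.99 FPKM in WT THY1+ uSPG and at 4.88, 5.73 and 4.83 FPKM in WT KIT+ dSPG (log2 -0.96 ± 0.12, adjusted p = 0.000153). In cKO it was at 8.30, 9.29 and 11.3 FPKM in THY1+ and at 5.14, 5.91 and 4.91 FPKM in KIT+ libraries (-0.84 ± 0.17). In null the change was -0.63 ± 0.12, and that call was lost without null KIT+ replicate 3 (-0.54) and with a pseudocount of 1 (-0.56).

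Phc1, a polyhomeotic subunit that lets PRC1 polymerise, was at 13.8, 16.9 and 11.5 FPKM in WT THY1+ uSPG and at 7.29, 9.40 and 6.93 FPKM in WT KIT+ dSPG (log2 -0.82 ± 0.19, adjusted p = 0.00788). The groups did not overlap, although same-numbered libraries were high or low together. In cKO it went from 15.3, 16.3 and 17.6 FPKM to 5.62, 11.2 and 7.58 FPKM (-1.05 ± 0.29), where the call was lost without cKO THY1+ replicate 3 (adjusted p = 0.0583), without cKO KIT+ replicate 1 (0.069) and on replicates 2 and 3 alone (0.148). In null (-0.72 ± 0.19) the change fell to -0.58 without null THY1+ replicate 2 or null KIT+ replicate 3, under 1.5-fold.

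Ezh1 was the only called gene of the PRC2 core. It was at 10.1, 11.9 and 10.9 FPKM in WT KIT+ dSPG, below all WT THY1+ libraries given above (log2 -0.64 ± 0.09, adjusted p = 0.00045). In cKO it was at 18.4, 18.6 and 19.996 FPKM in THY1+ and at 10.96, 11.1 and 12.5 FPKM in KIT+ libraries (-0.72 ± 0.10), and in null the change was -0.88 ± 0.09. The call in WT was lost without WT KIT+ replicate 1 (-0.58) and after the GC and length correction (-0.45). Ezh2, the methyltransferase of dividing cells, was at 10.2, 10.54 and 8.02 FPKM in WT KIT+ dSPG, with lower estimates of -0.24 ± 0.12 in WT, -0.35 ± 0.12 in null and -0.39 ± 0.11 in cKO, none of them 1.5-fold. Eed, Suz12, Rbbp4 and Rbbp7 were not called in any of the 3.

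Hdac9, a class IIa deacetylase, had the largest change in WT. From the WT libraries given above, it fell by 1.52 ± 0.18 on the log2 scale in KIT+ dSPG (adjusted p = 9.74e-05). In cKO it was at 4.29, 6.30 and 4.43 FPKM in THY1+ and at 2.66, 2.41 and 2.54 FPKM in KIT+ libraries, a change of -0.93 ± 0.17 (adjusted p = 0.00157). In null the change was -0.57 ± 0.18, just under 1.5-fold, with an adjusted p of 0.0266. The other class IIa genes were not called, with estimates in WT of -0.45 (Hdac4), -0.34 (Hdac5) and -0.55 (Hdac7).

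**Figure D4:**
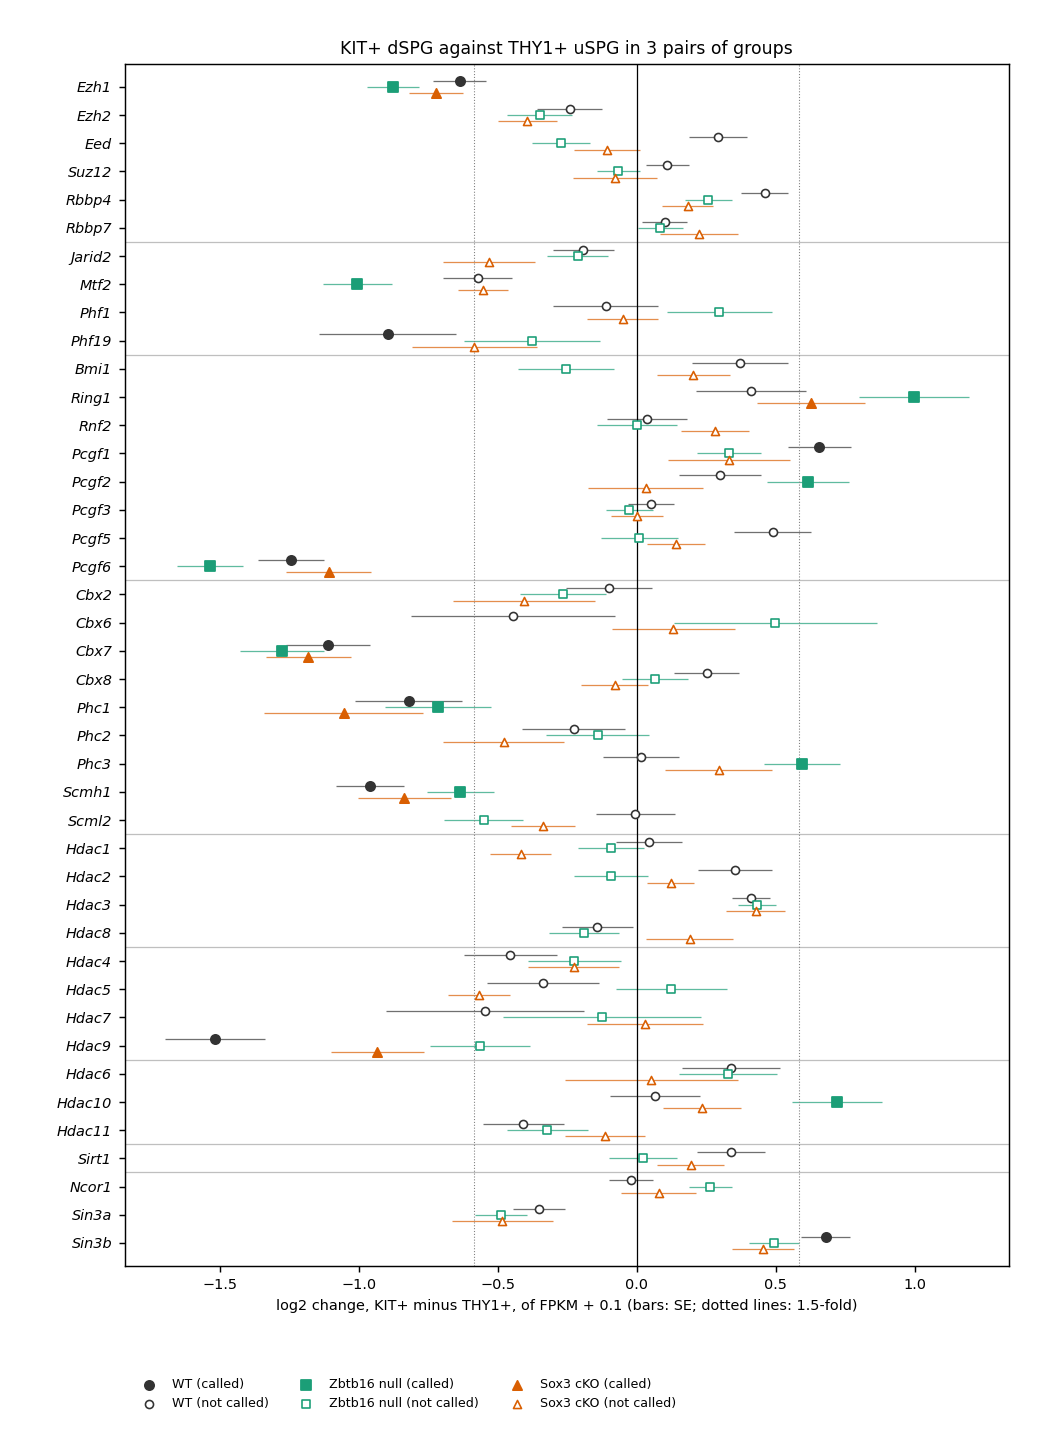
Log2 change of each of the 42 genes in KIT+ dSPG against THY1+ uSPG, in WT (black circles) and Zbtb16 null (green squares) of the Zbtb16 set and in Sox3 cKO (orange triangles) of the Sox3 set; bars give the SE, filled symbols are called and dotted lines mark 1.5-fold. Ezh1, Pcgf6, Cbx7, Phc1 and Scmh1 have 3 filled symbols on the lower side.

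Of the 4 accessory PRC2 proteins, which guide the complex to DNA, Phf19 was called lower in WT KIT+ dSPG and Mtf2 in null KIT+ dSPG. Phf19, a PRC2 subunit that reads methylated H3K36, was at 2.01, 2.67 and 2.08 FPKM in WT THY1+ uSPG and at 0.94, 1.55 and 1.05 FPKM in WT KIT+ dSPG (log2 -0.90 ± 0.25, adjusted p = 0.018). At these low levels the call was lost without WT THY1+ replicate 2 (adjusted p = 0.0722), without WT KIT+ replicate 1 (0.0691) or 3 (0.0633), and with a pseudocount of 1 (-0.58). Mtf2, a related PRC2 subunit, was called in null alone: it went from 77.9 ± 8.49 to 38.8 ± 5.24 FPKM there (-1.01 ± 0.12), from 61.7 ± 6.07 to 41.4 ± 2.80 FPKM in WT (-0.57 ± 0.12) and from 60.8 ± 5.21 to 41.3 ± 1.70 FPKM in cKO (-0.55 ± 0.09). The difference between the changes in null and in WT was not called (-0.43 ± 0.17, adjusted p = 0.18). Jarid2 had lower estimates in all 3 comparisons, from -0.53 to -0.19, and was not called.

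Some genes were higher in KIT+ dSPG. Sin3b rose from 37.6 ± 1.52 to 60.4 ± 3.53 FPKM in WT (log2 0.68 ± 0.09, adjusted p = 0.000188), with 0.49 ± 0.09 in null and 0.45 ± 0.11 in cKO, both past the adjusted p but under 1.5-fold. Its paralog Sin3a had the other sign, at -0.35 ± 0.09, -0.49 ± 0.09 and -0.48 ± 0.18. As a result Sin3a was 62.7% ± 1.72 of the summed FPKM of both in WT THY1+ uSPG and 45.05% ± 3.43 in WT KIT+ dSPG, and its share was 60.2% ± 1.01 and 44.1% ± 3.13 in the cKO fractions. The libraries of the 2 fractions did not overlap in this share in WT or in cKO.

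Pcgf1, the PCGF protein of the BCOR complex, rose from 4.33 ± 0.318 to 6.89 ± 0.649 FPKM in WT (0.66 ± 0.11), a call lost without WT KIT+ replicate 1 (0.58) and with a pseudocount of 1 (0.57). Ring1, the minor H2A ligase, was called in null (0.996 ± 0.20, from 2.79 ± 0.686 to 5.64 ± 1.13 FPKM) and in cKO (0.63 ± 0.19). In cKO its call was lost in 8 of 15 settings, with adjusted p between 0.0579 and 0.12 when any of cKO THY1+ replicates 1, 2 and 3 or cKO KIT+ replicates 1 and 3 was left out. In null, Pcgf2 (0.62 ± 0.15), Phc3 (0.60 ± 0.14) and Hdac10 (0.72 ± 0.16) also rose. The calls of Pcgf2 and Phc3 were lost without null THY1+ replicate 3 (both 0.53) or without null KIT+ replicate 2 (0.55 and 0.52). With a pseudocount of 1, Pcgf2 (0.45), Phc3 (0.49) and Hdac10 (0.56) were all under 1.5-fold, and so was Pcgf2 after the GC and length correction (0.56). For Ring1, Pcgf2, Phc3 and Hdac10, null THY1+ uSPG stood below the other 3 groups of the set by their means.

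Hdac3 gave an even change among the genes called in none of these 3 comparisons. It was at 18.3 ± 0.505 FPKM in WT THY1+ and 24.4 ± 0.868 FPKM in WT KIT+ cells, and its log2 changes were 0.41 ± 0.07, 0.43 ± 0.07 and 0.43 ± 0.11 in WT, null and cKO, each past the adjusted p. Hdac1 and Hdac2, the catalytic pair of the SIN3 and NuRD complexes, were called in none. Hdac6 and Sirt1, whose main known substrates include proteins other than histones, were called in none either.

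These fractions differ in the other cells they hold. The summed FPKM of 12 macrophage markers was 1029 to 1187 in WT THY1+ uSPG and 7.16 to 9.23 in WT KIT+ dSPG, and that of 8 Leydig cell markers was 118 to 153 in the former and 1337 to 2402 in the latter. The same contrast held in null (485 to 912 against 6.59 to 18.8 for macrophage markers) and in cKO (1275 to 1455 against 9.83 to 10.1). Markers of undifferentiated spermatogonia summed to 202 to 227 FPKM in WT THY1+ and 51.1 to 79.9 FPKM in WT KIT+ cells, while the 8 germ cell markers summed to 990 to 1181 and 944 to 1213. Whether macrophages or Leydig cells contributed to the fraction changes of Hdac9, Cbx7 or any other of these genes was not tested. Of the 82 related genes tested, 2 were called higher and 6 lower in WT KIT+ dSPG, 7 and 8 in null, and 4 and 8 in cKO, beside 7.21% and 14%, 13.2% and 16%, and 10.5% and 12.2% of all genes, with median log2 changes of -0.15, -0.14 and -0.14 beside -0.03, -0.05 and -0.02 over all genes.

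Sox3 cKO was compared with WT over both fractions together, since that average is the same if the WT labels are exchanged. In this comparison 3 of the 42 genes were called, all higher in cKO, beside 10.3% of all genes called in either direction and 7.49% called higher. By adjusted p alone, 7 were higher and 9 lower, or 38.1% of the 42 beside 24.6% of all genes (13.1% higher and 11.6% lower). The called genes were Phf19, Cbx6 and Hdac7, of which Phf19 and Hdac7 are among the lowest of the 42 in FPKM.

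Phf19 was at 1.202, 0.817 and 1.35 FPKM in WT labelled THY1+, at 2.44, 1.84 and 2.63 FPKM in WT labelled KIT+, at 3.06, 3.12 and 3.34 FPKM in cKO THY1+ and at 2.36, 1.58 and 2.42 FPKM in cKO KIT+ libraries (log2 0.66 ± 0.16, adjusted p = 0.0135). Cbx6, a chromobox gene, was at 5.46, 3.69 and 5.21 FPKM and 5.95, 6.49 and 5.76 FPKM in the WT groups in that order, and at 7.56, 12.6 and 6.30 FPKM and 9.33, 9.18 and 9.20 FPKM in the cKO groups (0.71 ± 0.16, adjusted p = 0.00921). Hdac7, a class IIa deacetylase, was at 2.26, 1.55 and 2.38 FPKM and 2.22, 2.79 and 2.33 FPKM in WT, and at 2.66, 4.30 and 3.35 FPKM and 3.80, 3.24 and 3.33 FPKM in cKO (0.59 ± 0.15, adjusted p = 0.0149). The 6 WT and 6 cKO libraries overlapped for each of the 3 genes. Cbx6 shares exon sequence on its strand with an annotated longer gene, Npcd, so its reads cannot be assigned to it alone. Hdac7 shares exon sequence with Slc48a1 on the opposite strand, and reads of that gene may be counted with it if strand was ignored.

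None of these 3 calls held in every setting. After the GC and length correction, they fell to 0.58, 0.55 and 0.49, just under 1.5-fold. The 1 call was then Pcgf5, lower in cKO at -0.65 (-0.41 without the correction), beside 9.14% of all genes called. On replicates 2 and 3 alone, which have fewer reads, 0 of the 42 were called, beside 2.82% of all genes. The estimates of the 3 genes there were 0.68, 0.79 and 0.65. Without cKO THY1+ replicate 2, where Cbx6 and Hdac7 were highest, these were 0.57 and 0.51. Without WT labelled THY1+ replicate 2, where all 3 were lowest, Phf19 and Hdac7 were 0.56 and 0.50. Hdac7 also fell under 1.5-fold without WT labelled KIT+ replicate 1 (0.56) or 3 (0.58) and without cKO KIT+ replicate 1 (0.56).

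Among the genes with lower values in cKO, Eed was the one whose 6 cKO libraries (34.9 to 47.4 FPKM) all lay below the 6 WT libraries (50.9 to 65.9 FPKM), with a log2 change of -0.48 ± 0.08 (adjusted p = 0.00381). Groups that did not overlap in this way were found for 4.37% of all genes. Bmi1 was at 34.6, 35.9 and 35.0 FPKM and 28.8, 30.1 and 27.8 FPKM in the WT groups and at 19.4, 22.1 and 22.3 FPKM and 20.2, 30.5 and 23.7 FPKM in the cKO groups (-0.48 ± 0.09, adjusted p = 0.00538), so cKO KIT+ replicate 2 lay within the WT range. Pcgf1 (-0.50 ± 0.15), Cbx8 (-0.47 ± 0.09), Pcgf5 (-0.41 ± 0.07) and Sin3b (-0.37 ± 0.08) also passed the adjusted p. The GC and length correction left Eed and Bmi1 past the adjusted p (-0.55 for both) but not Ncor1, which went from 0.35 to 0.12. Replicates 2 and 3 alone have fewer libraries and fewer reads. In that fit 0 of the genes described here passed the adjusted p, Eed and Bmi1 included, against 16 with all replicates. Of all genes, 3.27% passed in that fit, against 24.6% with all replicates.

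**Figure D5:**
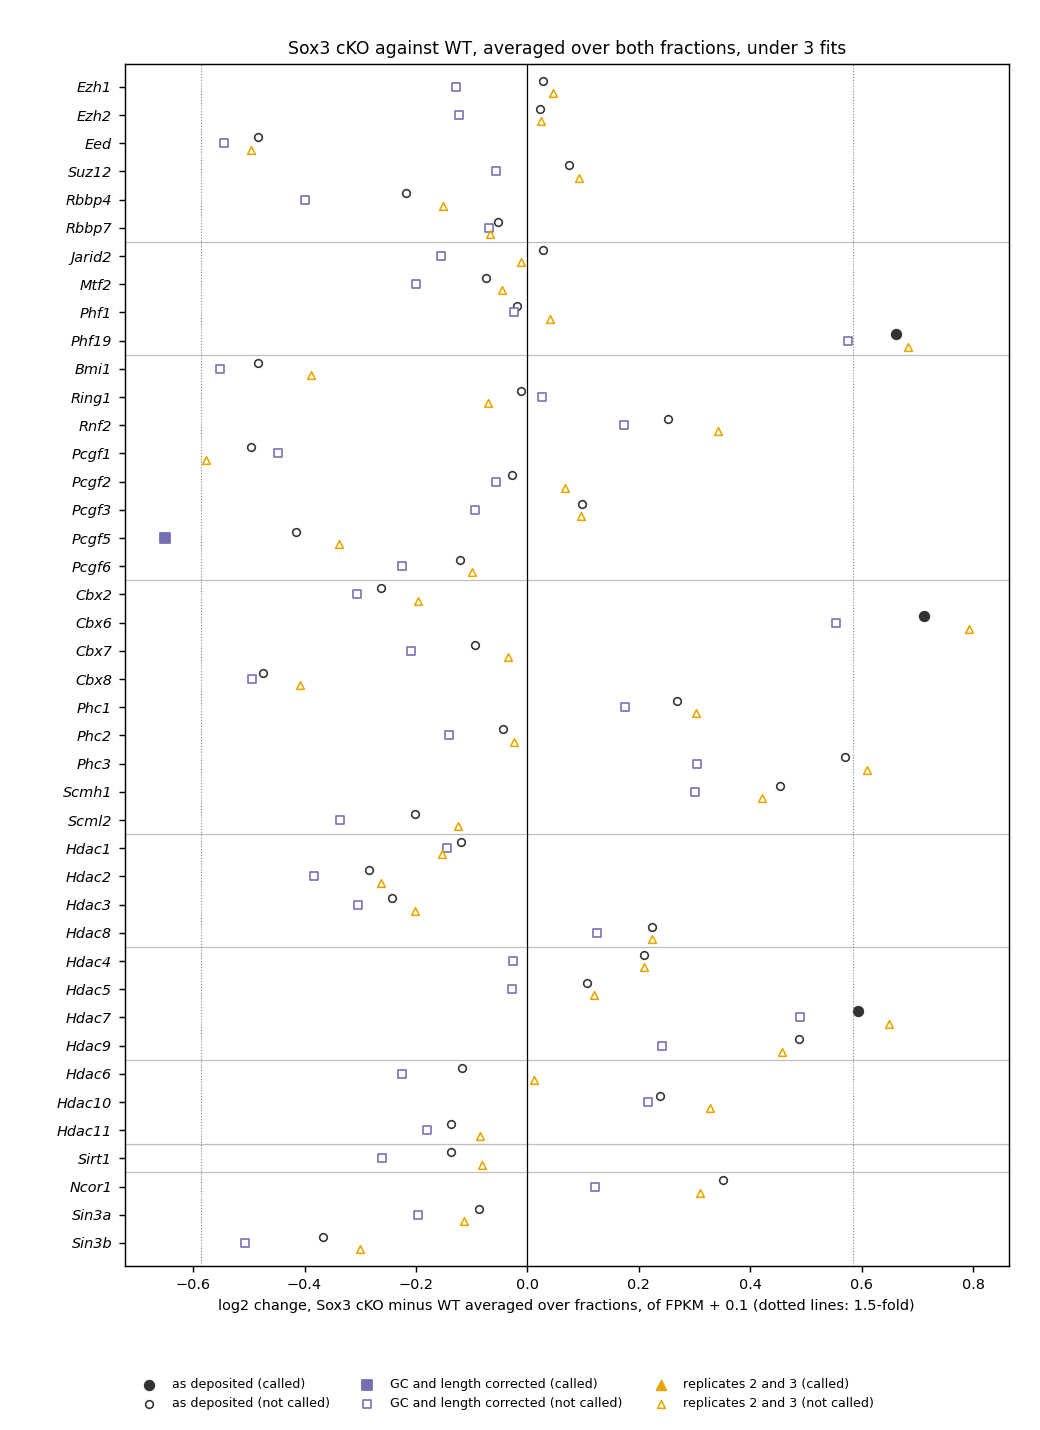
Log2 change of each of the 42 genes between Sox3 cKO and WT, averaged over both fractions, with the values as deposited (black circles), after correction for GC content and gene length (violet squares) and on replicates 2 and 3 alone (yellow triangles); filled symbols are called and dotted lines mark 1.5-fold. Phf19, Cbx6 and Hdac7 are filled as deposited and Pcgf5 is filled after the correction.

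Some markers of other cells were also called between the Sox3 genotypes. The median log2 change in cKO was 0.75 over 8 Leydig cell markers (4 called higher), 0.56 over 10 peritubular and stromal markers (3 called), 0.52 over 8 endothelial markers (3 called) and 0.43 over 9 Sertoli cell markers (3 called). It was 0.07 over 12 macrophage markers and -0.06 over 9 T cell markers, with 0 called by limma, and -0.37 over 8 germ cell markers, with 2 called lower. The part of other cells in the changes of Phf19, Cbx6 and Hdac7 was not tested. Of the 82 related genes, 4 were called higher (Rcor3 at 0.79, Kat2b at 0.72, Rcor1 at 0.67 and Bcor at 0.63) and 2 lower (Sap30 at -0.67 and E130012A19Rik, also known as Epop, at -0.67), beside 7.49% of all genes called higher and 2.83% called lower. Rcor1 and Rcor3 are scaffolds of the CoREST complex and Kat2b is a histone acetyltransferase.

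When WT and cKO groups with like Thy1 and Kit levels were set side by side, cKO THY1+ against WT labelled KIT+ gave no call among the 42 genes by limma, beside 0.0707% of all genes, with 7 under an unadjusted p of 0.05 (16.7%, beside 13.2% of all genes). The lowest and highest estimates were -0.44 and 0.47. In the other such pair, cKO KIT+ against WT labelled THY1+, 8 were called, beside 17% of all genes. Cbx6 (0.95), Phf19 (0.86), Hdac9 (0.84), Phc3 (0.75) and Hdac7 (0.73) were higher, and Cbx8 (-0.68), Eed (-0.64) and Pcgf5 (-0.60) were lower in cKO. Markers of other cells also differed in this pair. Their median log2 change in cKO was 1.22 over 8 Leydig cell (5 called higher) and 0.97 over 8 endothelial markers (5 called). It was 0.88 over 10 peritubular and stromal (3 called), 0.66 over 9 Sertoli cell (2 called) and 0.21 over 12 macrophage markers (4 called). Over 9 T cell markers it was 0.14, and over 8 germ cell markers -0.51 (3 called lower). Their part in the 8 calls was not tested. All 8 calls were lost on replicates 2 and 3 alone, where 4.66% of all genes were called. Phf19 and Hdac7 each lost their call in 5 of 10 settings. Among these were the fits without WT labelled THY1+ replicate 2 (0.67 and 0.55) and without cKO KIT+ replicate 1 (0.77 and 0.67) or 3 (0.76 for both). The calls were also lost for Pcgf5 without cKO KIT+ replicate 1 (-0.52) or WT labelled THY1+ replicate 2 (-0.58), for Eed without cKO KIT+ replicate 2 (-0.52), and for Phc3 without cKO KIT+ replicate 2 (0.59, adjusted p = 0.0568) or WT labelled THY1+ replicate 3 (0.71, adjusted p = 0.0506). After the GC and length correction the split in this pair was 3 higher and 7 lower, beside 18.1% of all genes called. The median log2 change over all genes moved from 0.02 to -0.08. As labelled, the counts were 15 of 42 for cKO THY1+ against WT labelled THY1+ (29.1% of all genes) and 6 of 42 for cKO KIT+ against WT labelled KIT+ (25.1% of all genes). The former split into 9 higher and 6 lower as deposited and 7 higher and 10 lower after the GC and length correction. That correction called 31.5% of all genes and moved their median log2 change from 0.04 to -0.13. In this pair the genes of the fraction comparison came up again, among them Pcgf6 (1.11), Cbx7 (0.93), Phc1 (1.13), Scmh1 (1.29) and Ezh1 (0.68). Within WT of the Sox3 set, 8 of 42 genes were called between the labelled fractions, beside 19.7% of all genes, with signs opposite to those of the same genes in the 3 fraction comparisons above. Pcgf6 (1.35), Cbx7 (0.88), Hdac9 (1.64), Phf19 (0.99), Scmh1 (0.84), Mtf2 (0.64) and Ezh1 (0.59) were higher in the libraries labelled KIT+, and Sin3b (-0.70) was lower. After the GC and length correction, 5 were called higher and 6 lower there, beside 21.7% of all genes called. The median log2 change over all genes moved from 0.02 to -0.12. The interaction of genotype and fraction, taken as labelled, called 17 of the 42 genes beside 37.5% of all genes.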

How the data were processed

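The authors sequenced total RNA of THY1+ uSPG and KIT+ dSPG as stranded, ribosomal-RNA-depleted single reads, aligned it to mm10 with Novoalign, and summarised it with USeq. The deposited values are FPKM, and whether counting used strand is not given in the sources used here. This matters for genes such as Cbx7, Hdac7, Mtf2, Ncor1 and Rbbp7, which share exon sequence with protein-coding genes on the opposite strand. The authors tested with DESeq2, which needs counts, so log2(FPKM + 0.1) was analysed here in limma 3.58.1 (R 4.3.3).

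Groups came from the labels. After a filter on mean FPKM (0.1 or more), 22374 and 21212 genes remained, all 42 described genes among them. One model of 4 group means was fitted per table with eBayes (trend, robust). Two-sided p-values were adjusted over all genes of a comparison by the Benjamini-Hochberg method. Calls needed both an adjusted p no higher than 0.05 and 1.5-fold. The pseudocount understates changes of low genes. The genes, their roles, the related and marker lists and the rule for naming genes (all 42, with values in every library for called genes, the largest fraction changes and some ZBTB16 partners) were chosen with earlier results of these data known. The model was tested on simulated libraries made from WT THY1+ uSPG levels, for null against WT in that fraction alone. They were drawn independently, so the simulation does not cover the shared deviation of same-numbered libraries or the Sox3 set. Each library pools 3 mice, and p-values cover only the spread between such pools.

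Same-numbered libraries were taken as pairs where all 3 residual correlations were over 0.1. This held for null against WT in THY1+ (0.144 to 0.595) and KIT+ cells (0.461 to 0.636), for the fractions of null (0.369 to 0.626), cKO (0.111 to 0.262) and WT of the Sox3 set (0.115 to 0.433), and for cKO THY1+ against WT labelled KIT+ (0.143 to 0.302). Depth was estimated from the steps of low FPKM values with GENCODE M21 gene lengths. Alternatives were other pseudocounts, filters and scaling, a replicate block, single libraries left out and, added after the data were seen, a GC and length correction (known for all 42 genes) and Sox3 replicates 2 and 3 alone.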

Additional observations from a re-analysis of the deposited data

Results flagged for a closer look

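In the Sox3 set, 17 of the 42 genes differed between genotypes in their fraction change when the WT libraries were taken as labelled, by an interaction test in limma that called 37.5% of all genes. The change in cKO less that in WT was -2.58 for Hdac9, -2.46 for Pcgf6, -2.06 for Cbx7, -1.72 for Phc1, -1.68 for Scmh1, -1.57 for Phf19, -1.31 for Ezh1, -1.20 for Mtf2, -0.87 for Hdac5, -0.71 for Sin3a and -0.70 for Ezh2 on the log2 scale. It was 1.16 for Sin3b, 0.96 for Pcgf1, 0.92 for Ring1, 0.88 for Hdac3, 0.65 for Pcgf5 and 0.63 for Rbbp4. Thy1 and Kit go against the labels of these WT fractions, and so do cell type markers. In WT libraries labelled KIT+ against those labelled THY1+, 12 macrophage markers and 12 of undifferentiated spermatogonia were called higher. Of the Leydig cell markers, 7 were called lower. Between KIT+ and THY1+ in cKO, the same counts were called the other way. The difference between genotypes and the order of the WT labels therefore cannot be told apart here. In the Zbtb16 set the same interaction test, without a replicate block, called none of the 42 genes.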

How the results depend on the processing

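The called genes and counts were recomputed under each alternative. For single genes, 723 of 829 values kept their call, 106 lost it and 0 changed sign. Of 179 recomputed counts, 159 stayed within 1.5 times the reported one. With a pseudocount of 1, 1 gene was called in null THY1+ uSPG, 6 between the fractions in null, 1 in the averaged Sox3 comparison and 5 in cKO KIT+ against WT labelled THY1+. Over all genes, the calls fell from 890 to 565, from 6532 to 4070, from 2188 to 1024 and from 3608 to 2557 in that order. The GC and length correction moved the median of all genes by 0.13 between the WT fractions. It left 1 call in null THY1+ uSPG (Pcgf6), beside 5.22% of all genes. In the averaged Sox3 comparison it left 1 (Pcgf5, not called as deposited), beside 9.14% of all genes. A fit of the compared libraries alone left 1 in null THY1+ uSPG, beside 694 of all 22276 genes tested. Sox3 replicates 2 and 3 alone left 0 in the averaged comparison and 0 in cKO KIT+ against WT labelled THY1+, with fewer libraries and fewer reads. Of all genes, 2.82% and 4.66% were called in these fits. The replicate block gave 3 calls of 42 for the genotype by fraction interaction (Bmi1, Hdac9 and Hdac10), beside 12.3% of all genes. There, 16 of 18 pairs had a correlation over 0.1. The labels do not say whether libraries that share a number came from the same isolation. The block moved no other count of calls by over 1.5 times. By adjusted p alone it moved the averaged Zbtb16 count from 4 to 8 (12.1% of all genes with the block), the interaction from 0 to 12 (19.3%) and the WT fractions from 14 to 27 (43.6%).

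With 1 library left out, the counts ran from 1 to 3 for null THY1+ uSPG, 0 to 0 for null KIT+ dSPG, 0 to 1 for the averaged Zbtb16 comparison and the interaction, 6 to 10 and 8 to 11 for the fractions of WT and null, 5 to 8 for those of cKO, 1 to 4 for the averaged Sox3 comparison and 5 to 9 for cKO KIT+ against WT labelled THY1+. Over all genes, the calls ran from 295 to 820 for null THY1+ uSPG, 25 to 37 for null KIT+ dSPG and 340 to 488 for the averaged Zbtb16 comparison. They ran from 1 to 867 for the interaction, and from 3903 to 4867, 5747 to 6673 and 3703 to 4652 for the fractions of WT, null and cKO. For the averaged Sox3 comparison they ran from 1589 to 2395, and for cKO KIT+ against WT labelled THY1+ from 2327 to 3481. The count was 1 without WT THY1+ replicate 1 or 2 or null THY1+ replicate 1 or 3 in null THY1+ uSPG, and 1 without cKO THY1+ replicate 2 in the averaged Sox3 comparison. The cause of these moves was not tested. Depth limits the Sox3 replicates 2 and 3 most, where Phf19 rested on as few as 56.0 reads.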
